A study of Mus musculus with 5 samples.

Results

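The 10 genes described here are factors and structural proteins of the neural crest and of neural stem cells, chosen by symbol from a table of 54699 genes. They are the SOX transcription factors Sox2, Sox4, Sox9 and Sox11, the zinc finger transcription factors Zic2 and Snai2, the Musashi RNA-binding proteins Msi1 and Msi2, and the intermediate filament genes Nes and Vim. All 10 were found in the table, each once and as a protein-coding gene. RNA sequencing covered 5 cultures of B16F10, an established mouse melanoma line that makes pigment, with 1 library from each. Lentivirus brought in Myod1, a master transcription factor of skeletal muscle, or Pparg, a nuclear receptor that drives fat cell formation, and these cells were taken on day 8, as were controls infected with an empty expression vector. A knockdown of Setdb1, a methyltransferase for lysine 9 of histone H3, was taken on day 7, as were controls with an empty knockdown vector. All groups were infected with lentivirus and grown in DMEM with 10% serum, and the submitters describe the treated cultures as taken once the cells had visibly changed.

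Melanocytes descend from the neural crest, a migratory cell population that leaves the dorsal neural tube of the vertebrate embryo. SOX proteins bind DNA through an HMG box and act in succession there. Sox2 acts in neural stem cells, Sox9 in the crest as it forms, and Sox4 and Sox11 in cells that go on to differentiate. Snai2, a zinc finger factor, also acts in the crest as it forms. Zic2 acts in the dorsal neural tube, the Musashi proteins bind messenger RNA and control its translation in stem cells, and nestin and vimentin build the intermediate filaments of neural progenitors. Melanoma cells often keep part of this program.

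Reads recovered from the deposited values ranged from 16214802 to 18300670 per library. The unit is FPKM, read fragments scaled to gene length and to a factor for each library, which allows levels of different genes to be set side by side. That factor was not the plain number of reads. It was 0.859 times the reads with Myod1 and 1.096 times with Pparg. Intervals are at 95%, cover the counting of reads only, and say nothing of the spread between cultures. With 1 library a group there was no replicate, so no difference below has a test. Myod1 was found at 260 FPKM in the library made to express it and without a read in the other 4, Pparg likewise at 44.4 FPKM in its own library alone, and Setdb1 at 0.867 FPKM after knockdown against 9.82 in its control. The 12 melanocyte markers were each at 1 FPKM or more in all 5 libraries, with a summed level of 7899 FPKM with the empty expression vector, 8645 with the empty knockdown vector, 9180 after Setdb1 knockdown, 3363 with Myod1 and 2347 with Pparg. The sum after Setdb1 knockdown is carried by Pmel (4347 against 2993 FPKM), while the median log2 ratio of the 12 was −0.29 there, with Mitf (−1.54) and Slc45a2 (−1.49) lower and Oca2 (1.18) higher by at least 2-fold. The 12 skeletal muscle markers were all at 1 FPKM or more with Myod1 and reached 27403 FPKM together, while in the other 4 libraries only Des did and the sum was 5.29 to 15.8 FPKM. The 12 adipocyte markers summed to 383 FPKM with Pparg and to 0.762 to 2.77 FPKM elsewhere. With Pparg only 7 of them reached 1 FPKM. Fabp4 (153 FPKM), Cd36 (146 FPKM) and the introduced Pparg were the highest, and Cebpa, Lpl and Lep had no read. The cells of a culture were sequenced together, so a smaller share of cells with a transcript and less transcript per cell cannot be told apart.

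In the control with the empty expression vector the 10 genes spanned from nothing to one of the most abundant transcripts of the cell. Vim stood at 548 FPKM, above 99.6% of the genes compared, and Nes at 17.8 FPKM, above 75.8%. The transcription factors and Musashi genes came next, with Sox11 at 10.13 FPKM, Sox4 at 6.23, Zic2 at 5.85, Msi2 at 5.06, Sox9 at 3.73, Msi1 at 1.70 and Snai2 at 1.51. The place of Sox4 in this order is uncertain, since another gene overlaps its exons. The order also rests on the deposited gene lengths. Some of these exceed the longest annotated transcript, as for Msi2 (10405 against 6436 bases) and Msi1 (5800 against 3133 bases). Sox9, Msi1 and Snai2 thus lay in the lower part of the expressed genes, above 38.6%, 24.4% and 22.4% of them. Sox2 had no read in any library. Genes were compared where at least 1 library reached 1 FPKM, which 12842 genes and 9 of the 10 did, all but Sox2.

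**Figure D1:**
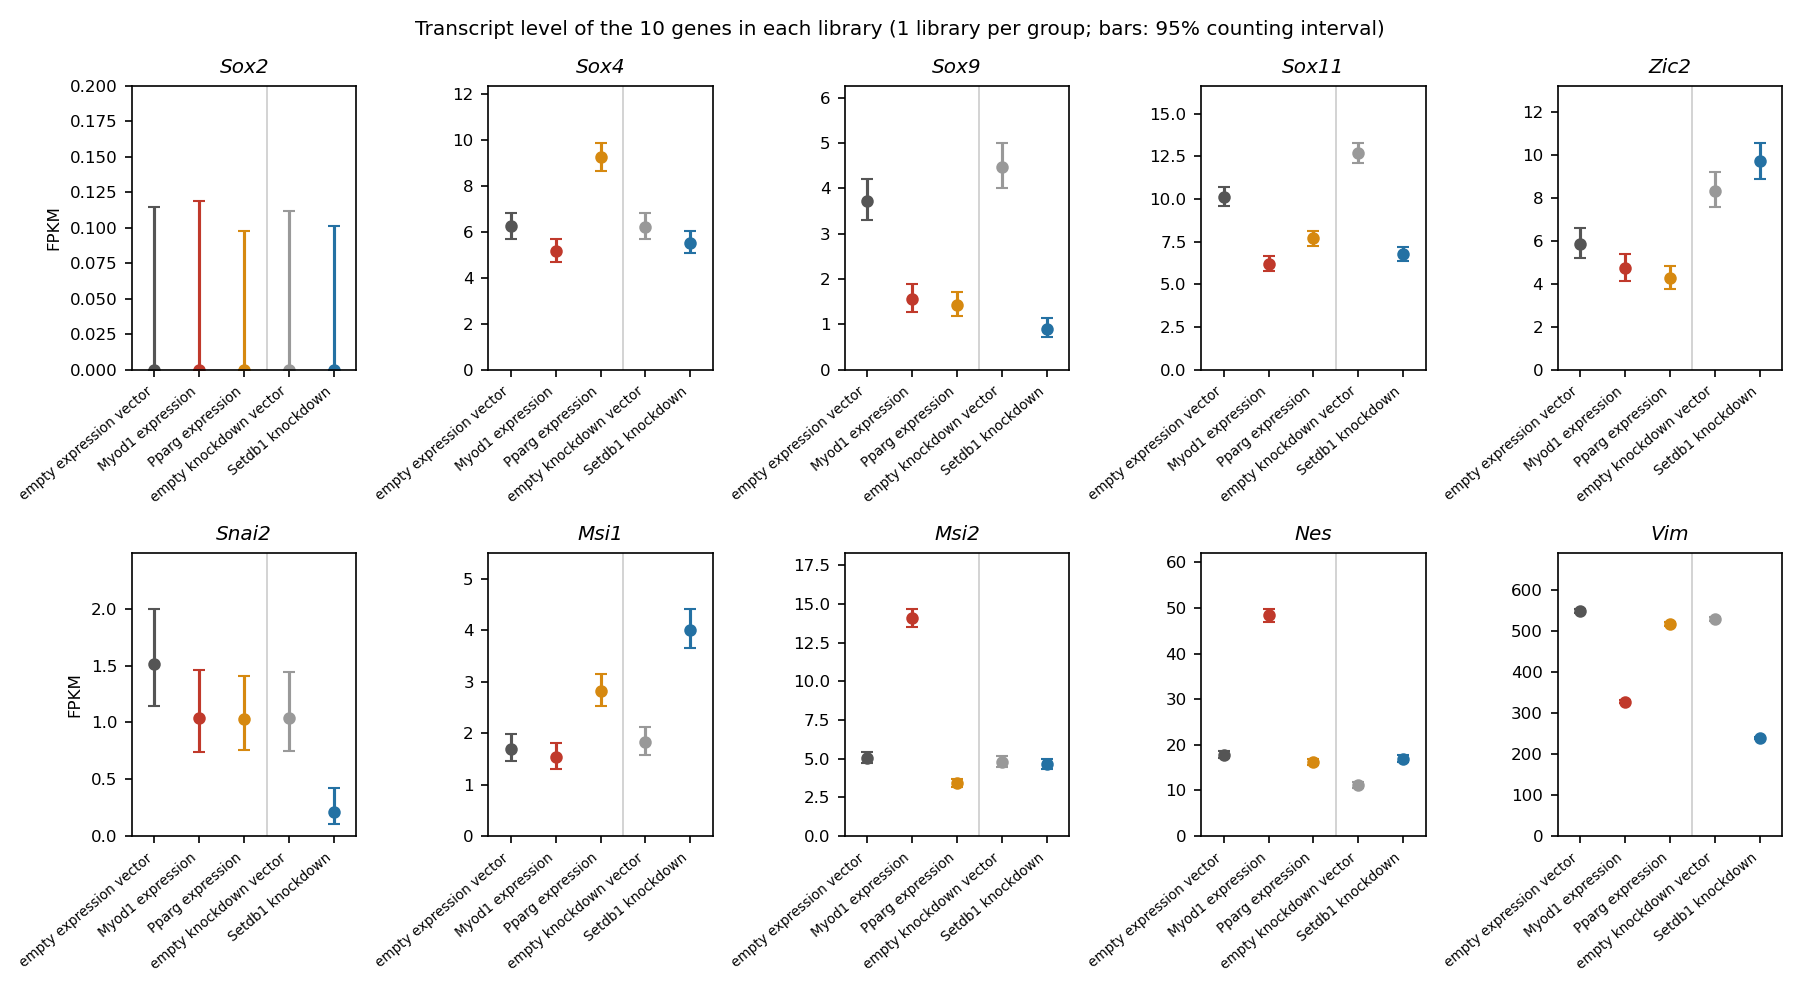
FPKM of the 10 genes in the 5 libraries, 1 panel a gene with its own linear axis from 0, 1 point a library and bars for the 95% counting interval. Nes at 48.4 and Msi2 at 14.1 FPKM stand above the other libraries with Myod1, Sox9 stands lower in all 3 treated libraries, and Sox2 is at 0 with bars for what 0 reads allow.

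A gene was called at a 2-fold change, that is an absolute difference of at least 1 in log2(FPKM + 1) between the treated library and its control. With Myod1, Nes and Msi2 rose and none of the 9 fell, where 14% of all genes compared were higher and 7.55% lower by that measure. Those shares depend on the scaling of this library and were 9.63% higher and 14.8% lower with each library divided by its FPKM sum, and 11.6% and 10.4% when scaled to the 75th percentile. With Pparg none of the 9 was called, against 4.22% of all genes higher and 2.3% lower. After Setdb1 knockdown Vim and Sox9 fell and none rose, against 10.3% of all genes lower and 9.34% higher. The empty knockdown vector set against the empty expression vector, which differ in vector and by 1 day, gave none of the 9, against 1.23% of genes higher and 1.44% lower. The median log2 ratio of the 9 was −0.26 with Myod1, −0.31 with Pparg and −0.15 after Setdb1 knockdown, and the medians over all genes compared were 0.02, −0.02 and 0.00. Against the other control library the medians of the 9 were −0.23, −0.03 and −0.15, so the Pparg median rests on the control used. Below 0 lay 7 of the 9 log2 ratios with Myod1, 7 with Pparg and 6 after Setdb1 knockdown. Of all genes compared 47.9%, 52.0% and 47.4% lay below 0. Against the other control the sign of Snai2 changed with Myod1, and that of Nes with Pparg and after Setdb1 knockdown. The Myod1 and Pparg ratios share their control library, so the values stand side by side and are not independent of each other.

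**Figure D2:**
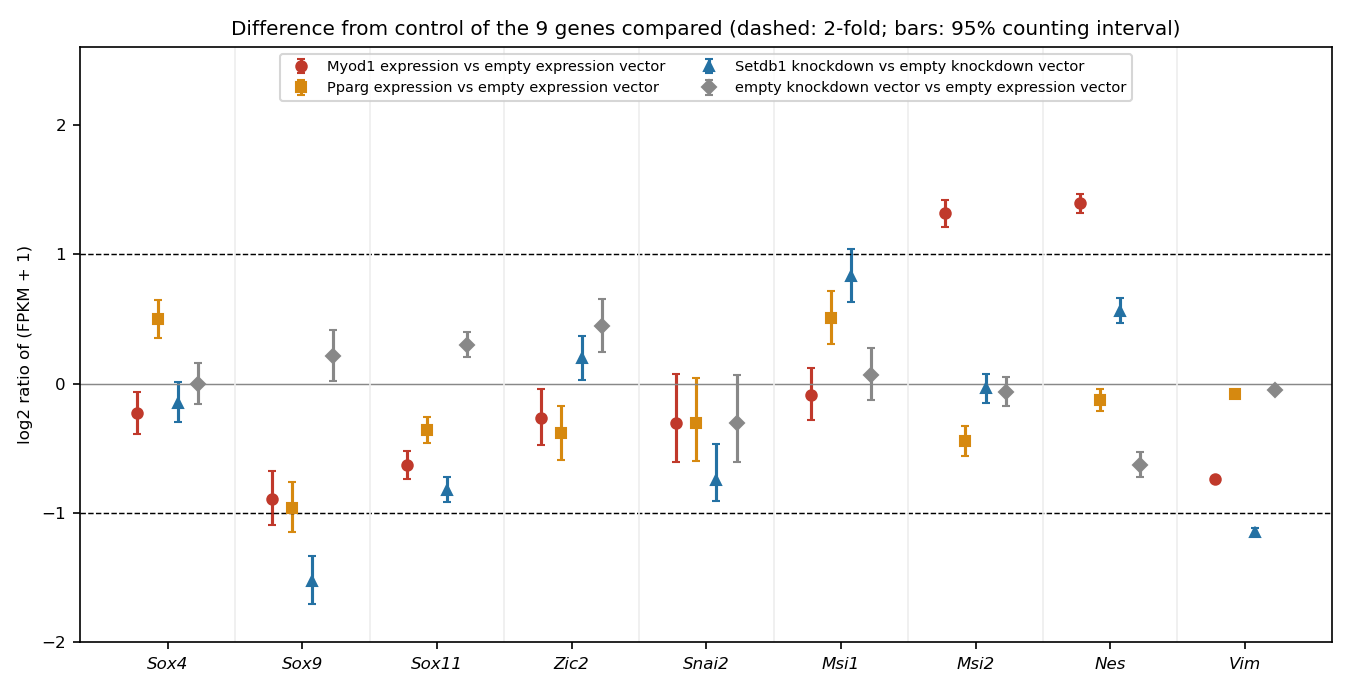
Log2 ratio of (FPKM + 1) of the 9 genes compared, by comparison (colour and symbol), with bars for the 95% counting interval and dashed lines at the 2-fold limits of −1 and 1. Nes at 1.39 and Msi2 at 1.31 lie above the limit with Myod1, and Sox9 at −1.53 and Vim at −1.14 lie below it after Setdb1 knockdown.

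Sox2, the SOX factor of neural stem and pluripotent cells (chr3:34650405-34652461, plus strand), had 0 reads in all 5 libraries. A count of 0 allows up to 0.0893 FPKM with the empty expression vector, 0.0928 with Myod1, 0.0761 with Pparg, 0.0872 with the empty knockdown vector and 0.0788 after Setdb1 knockdown, taking 3 reads as the limit. Sox2ot, the long RNA gene that spans Sox2 on the same strand, was also listed at 0 throughout, and no exon of another gene lies on an exon of Sox2. None of 20 widely expressed genes picked after the data were seen was at 0 in any library. As such genes are expressed in most cells, this does not show whether reads of Sox2 would have been counted. In the Sox family 10 of 20 genes were listed at 0 throughout, among them Sox12 and Sox13, and what lies behind these zeros was not tested. Of all 54699 genes, 17547 to 19163 had a read in a given library, so zeros were common. The limits above hold only if reads of Sox2 would have been counted, and no fold is given for Sox2.

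Sox9 stood lower in all 3 treated libraries than in both controls. This SOX factor, needed for the neural crest and for cartilage and neural stem cells (chr11:112782224-112787760, plus strand), was at 3.73 FPKM (3.30 to 4.22) with the empty expression vector and at 4.48 FPKM (4.01 to 5.01) with the empty knockdown vector. It was at 1.55 FPKM (1.28 to 1.89) with Myod1, 1.43 (1.19 to 1.71) with Pparg and 0.902 (0.713 to 1.14) after Setdb1 knockdown. The intervals of the controls overlap each other, those of Myod1 and Pparg overlap each other, and no treated library overlaps a control. As plain ratios of FPKM the levels were 41.6% of the control with Myod1 (32.7 to 52.7), 38.2% with Pparg (30.3 to 47.9) and 20.1% after Setdb1 knockdown (15.3 to 26.2). On the log2(FPKM + 1) scale, which pulls low genes towards 0, they were −0.89, −0.96 and −1.53, so the knockdown alone passed the limit. The 2 values short of the limit depend on how they are computed: with 0.1 FPKM added in place of 1 they were −1.21 and −1.33, where 13.2% and 4.66% of all genes were called lower, and against the other control library −1.10 and −1.18. Of all genes compared 2.47% had a lower ratio than Sox9 with Pparg, 3.89% after Setdb1 knockdown and 9.79% with Myod1.

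Sox9 was a minor SOX transcript beside Sox10, the SOX factor that holds the melanocyte identity. Sox10, which is not among the 10, was at 278 FPKM with the empty expression vector, 185 with Myod1, 185 with Pparg, 244 with the empty knockdown vector and 298 after Setdb1 knockdown. Its log2 ratio was −0.59 with Myod1, −0.59 with Pparg and 0.29 after Setdb1 knockdown, so it passed the limit in none of them. Within a library Sox10 exceeded Sox9 by 74.6 times (65.9 to 84.8) with the empty expression vector, 119 times (97.8 to 146) with Myod1 and 129.6 times (108 to 157) with Pparg. The Sox10 to Sox9 ratio was 54.5 (48.7 to 61.2) with the empty knockdown vector and 331 (261 to 426) after Setdb1 knockdown.

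Sox11 and Sox4 are closely related single-exon genes of the SoxC group, which promote neuronal differentiation of progenitors. Sox11 (chr12:27334264-27342574, minus strand) was at 10.13 FPKM (9.61 to 10.68) with the empty expression vector and 12.7 (12.1 to 13.3) with the empty knockdown vector. It was at 6.21 FPKM (5.79 to 6.65) with Myod1, 7.69 (7.27 to 8.13) with Pparg and 6.76 (6.36 to 7.18) after Setdb1 knockdown. All 3 treated libraries lie below both controls, and only Myod1 and Setdb1 knockdown overlap each other. The levels were 61.3% of the control with Myod1 (56.1 to 66.9), 75.9% with Pparg (70.2 to 82.1) and 53.2% after Setdb1 knockdown (49.2 to 57.5), and with log2 ratios of −0.63, −0.36 and −0.82 none reached 2-fold. With trends of GC content and gene length removed, a setting added after the data were seen, the log2 ratio with Myod1 was −0.28. The controls themselves differed by a log2 ratio of 0.30. Sox11 exceeded Sox9 by 2.71 times (2.37 to 3.12) with the empty expression vector, 3.995 times (3.25 to 4.96) with Myod1 and 5.39 times (4.45 to 6.599) with Pparg. That ratio was 2.83 (2.51 to 3.20) with the empty knockdown vector and 7.49 (5.87 to 9.70) after Setdb1 knockdown.

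Sox4 (chr13:28948919-28953713, minus strand) differed from Sox11 in direction with Pparg. It was at 6.23 FPKM (5.70 to 6.81) with the empty expression vector, 6.22 (5.70 to 6.79) with the empty knockdown vector, 5.16 (4.67 to 5.70) with Myod1 and 5.52 (5.05 to 6.03) after Setdb1 knockdown. These were 82.8% of the control with Myod1 (72.3 to 94.8) and 88.7% after Setdb1 knockdown (78.2 to 100.7). Both values lie below the control, as for Sox11, though for Sox4 the interval after knockdown includes the level of the control. Pparg stood apart at 9.23 FPKM (8.63 to 9.87), 1.48 times its control (1.32 to 1.66), with a log2 ratio of 0.50 that is under the limit. The ratio of Sox11 to Sox4 as deposited was 1.63 (1.47 to 1.81) with the empty expression vector and 2.04 (1.85 to 2.26) with the empty knockdown vector. That ratio was 1.20 (1.06 to 1.36) with Myod1, 1.22 (1.10 to 1.36) after Setdb1 knockdown and 0.833 (0.763 to 0.911) with Pparg, the lowest of the 5. Of the exonic bases of Sox4, 54.6% lie opposite an exon of the RNA gene Gm26735, listed at 0 in all 5 libraries. The sources used here do not state how strand was counted, so reads of the pair cannot be told apart and the level of Sox4 may be understated alike in every library. These values therefore do not settle which of Sox4 and Sox11 was the more abundant in the 4 libraries where the deposited value of Sox11 is the higher.

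The sequences upstream of the RefSeq starts of these SoxC genes are shown because this related pair differed in its ratio between libraries, and because Myod1 binds E-boxes, whose letters are CANNTG. They come from RefSeq, build GRCm38.p6, where a window of 250 bases before to 50 after the start was present for 6 of the 10 genes (Sox2, Sox4, Sox11, Msi2, Nes and Vim). They are written 5′ to 3′ on the gene's strand, end before the first annotated exon, and carry E-boxes in capitals. The Sox4 stretch is chr13:28953714-28953949 and the Sox11 stretch chr12:27342719-27342968, both on the minus strand.
Sox4: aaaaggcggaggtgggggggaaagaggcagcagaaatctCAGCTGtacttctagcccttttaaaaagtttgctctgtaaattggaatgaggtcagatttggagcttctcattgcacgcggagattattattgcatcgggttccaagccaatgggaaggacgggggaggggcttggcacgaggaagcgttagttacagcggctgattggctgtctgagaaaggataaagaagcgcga
Sox11: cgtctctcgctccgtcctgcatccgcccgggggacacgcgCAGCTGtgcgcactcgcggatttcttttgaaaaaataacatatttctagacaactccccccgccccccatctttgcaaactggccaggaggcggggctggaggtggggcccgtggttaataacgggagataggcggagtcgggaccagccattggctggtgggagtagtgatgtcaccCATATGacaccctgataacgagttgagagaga
Each holds CAGCTG once, at 211 bases before the start in Sox4 and at 210 in Sox11, and Sox11 holds a further E-box, CATATG, at 32 bases before it. CAGCTG was found in 16.3% of 32851 such windows and any E-box in 72.3% (both motifs read the same on either strand, and CAGCTG is itself an E-box). A match is a description and no measured binding site.

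Zic2 was higher in both day 7 libraries, which carried knockdown vectors, than in the 3 day 8 libraries. This zinc finger factor of the dorsal neural tube (chr14:122475435-122479852, plus strand) was at 5.85 FPKM (5.19 to 6.58) with the empty expression vector, 4.70 (4.11 to 5.38) with Myod1 and 4.24 (3.73 to 4.82) with Pparg. It was at 8.33 FPKM (7.55 to 9.18) with the empty knockdown vector and 9.68 (8.88 to 10.6) after Setdb1 knockdown. Vector and day cannot be told apart here, and within each set the control overlaps its neighbour. The empty knockdown vector exceeded the empty expression vector 1.42 times (1.22 to 1.67), a log2 ratio of 0.45 that is higher than that of 91.6% of genes. Against their own controls the log2 ratios were −0.26 with Myod1, −0.39 with Pparg and 0.20 after Setdb1 knockdown, all under the limit. Its neighbour Zic5, another Zic factor of the neural crest 9758 bases away on the opposite strand and named after its values were seen, was at 1.43, 1.34, 0.950, 2.34 and 0.928 FPKM with the empty expression vector, Myod1, Pparg, the empty knockdown vector and Setdb1 knockdown. After the knockdown Zic5 was thus at 39.7% of its control (30.4 to 51.6) and Zic2 at 1.16 times its control (1.02 to 1.33). On the log2 scale Zic5 was at −0.79, also under the limit. The size of both differences rests on the control used. Zic2 was at 1.66 times the other control (1.43 to 1.92). Zic5 after knockdown was nearer to the empty expression vector than to its own control. With trends of GC content and gene length removed Zic2 turned to −0.29 and Zic5 was at −0.80, so the direction of Zic2 after knockdown rests on that setting.

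Snai2, also called Slug, a zinc finger repressor of cadherin genes in migrating crest cells (chr16:14705852-14709385, plus strand), was the lowest member with reads. It had 50 reads or 1.51 FPKM (1.15 to 1.996) with the empty expression vector, 33 or 1.04 (0.739 to 1.46) with Myod1, 40 or 1.03 (0.758 to 1.41) with Pparg and 35 or 1.04 (0.745 to 1.44) with the empty knockdown vector. These 4 intervals overlap. After Setdb1 knockdown 8 reads remained, 0.214 FPKM (0.108 to 0.422), which lies below the other 4 and is 20.7% of the control (8.28 to 45.3). With 1 FPKM added the log2 ratio was −0.75 and under the limit, and with 0.1 FPKM added it was −1.86, where 16.3% of all genes were called lower.

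The Musashi genes, which code for RNA-binding proteins best known for repressing Numb in neural stem cells, differed in which libraries were highest. Msi2 (chr11:88339382-88718513, minus strand) was at 5.06 FPKM (4.73 to 5.41) with the empty expression vector, 4.80 (4.49 to 5.14) with the empty knockdown vector and 4.66 (4.36 to 4.97) after Setdb1 knockdown, whose intervals overlap. Myod1 stood apart at 14.1 FPKM (13.5 to 14.7) and Pparg was lowest at 3.45 (3.20 to 3.72). Msi2 therefore rose 2.78-fold with Myod1 (2.57 to 3.01), a log2 ratio of 1.31 that is higher than that of 90.5% of genes, and 2.93-fold when set against the other control. With each library divided by its FPKM sum the log2 ratio was 0.95, just under the limit. With Pparg it was at 68.2% of its control (61.6 to 75.5) and after Setdb1 knockdown at 96.9% (88.1 to 106.7).

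Msi1 (chr5:115429599-115455698, plus strand) was highest after Setdb1 knockdown, where Msi2 overlapped the controls. It was at 1.70 FPKM (1.46 to 1.98) with the empty expression vector, 1.83 (1.58 to 2.11) with the empty knockdown vector and 1.54 (1.30 to 1.81) with Myod1, and these overlap. Above them stood Pparg at 2.82 FPKM (2.53 to 3.15) and Setdb1 knockdown at 4.02 (3.65 to 4.41). As a plain ratio Msi1 was at 2.20 times its control after Setdb1 knockdown (1.84 to 2.64) and at 1.66 times with Pparg (1.37 to 2.02). The log2 ratios after adding 1 FPKM were 0.83 and 0.50, under the limit, and with 0.1 FPKM added the knockdown value was 1.10, where 15% of all genes were called higher. The ratio of Msi2 to Msi1 within a library was 2.98 (2.51 to 3.55) and 2.63 (2.24 to 3.11) in the controls with the empty expression and empty knockdown vectors. It was 9.17 (7.73 to 10.95) with Myod1, 1.22 (1.07 to 1.40) with Pparg and 1.16 (1.03 to 1.30) after Setdb1 knockdown. The knockdown contrast of the pair was not kept under another setting. Msi1 has a GC content of 57.9% and Msi2 of 42.3%, and with trends of GC content and gene length removed their log2 ratios were 0.53 and 0.48, in place of 0.83 and −0.04. Numb itself stood at 8.85, 7.63 and 9.78 FPKM with the empty expression vector, Myod1 and Pparg, and at 7.07 and 11.1 with the empty knockdown vector and Setdb1 knockdown. It passed the limit in no comparison.

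Of the 3 Msi2 windows, the one with the most upstream start held the E-box CACGTG at 2 places. Both lie beyond the base where annotated exon sequence begins, and whether each falls inside that exon was not checked. They are shown with 12 bases on either side because Msi2 was called with Myod1. CACGTG was present in 7.15% of all windows.
Msi2, 126 bases before the start (chr11:88718386-88718415, minus strand): agaactccgcccCACGTGcgcggggaggag
Msi2, from base 6 of the transcript (chr11:88718255-88718284, minus strand): ctgagccgagccCACGTGtgacgggctctc
Neither place carries the letters CAGCTG or CAGGTG, which this Msi2 window did not hold. That says only that those letters are not in this window.

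**Figure D3:**
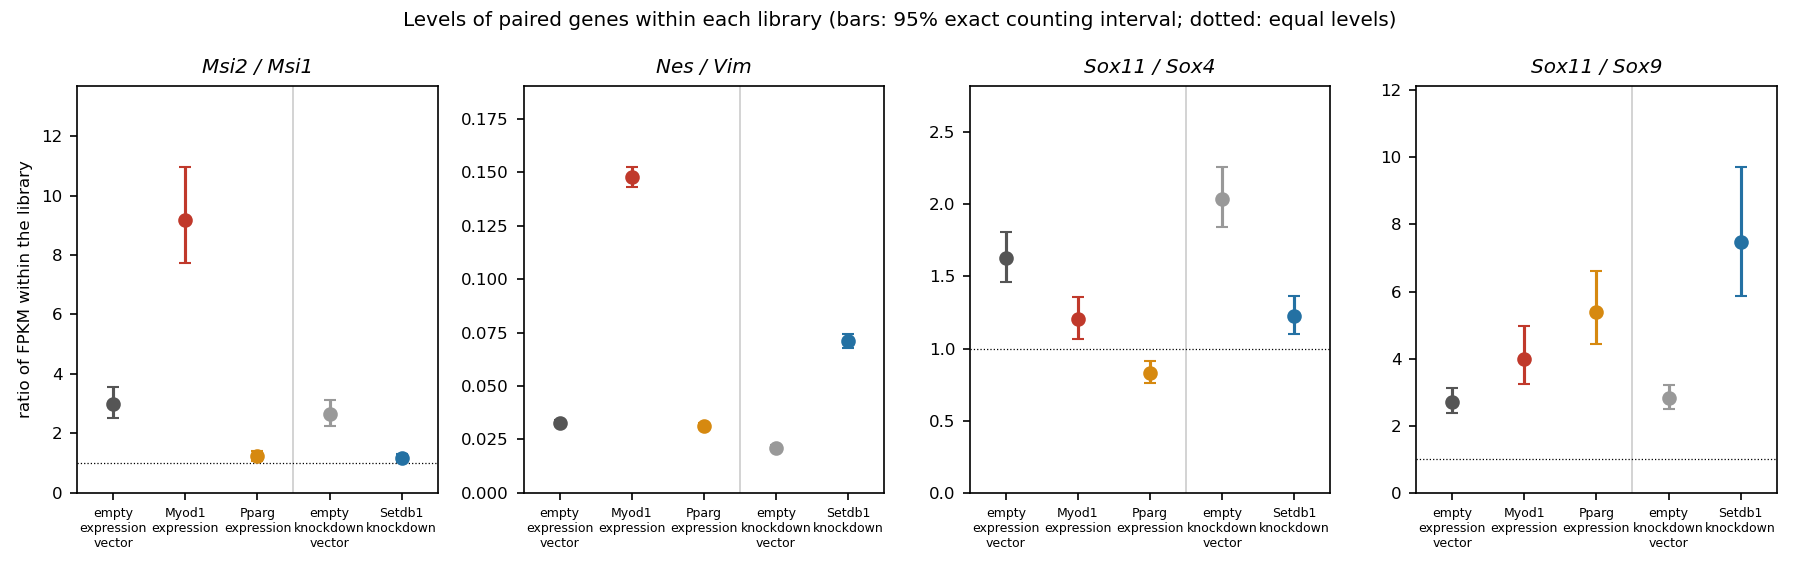
Ratio of FPKM between related genes within each library, on linear axes from 0, with bars for the 95% counting interval and a dotted line at equal levels. Msi2 over Msi1 ranges from 1.16 after Setdb1 knockdown to 9.17 with Myod1, and Sox11 over Sox4, whose absolute level is uncertain, is lowest with Pparg at 0.833.

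Nes codes for nestin, the intermediate filament protein of neural stem cells that is also made in young muscle fibres (chr3:87971078-87980451, plus strand). It was at 48.4 FPKM (47.0 to 49.7) with Myod1, above all other libraries. The next 3 each overlap their neighbour in the order, with 17.8 (17.02 to 18.6) for the empty expression vector, 16.99 (16.3 to 17.7) after Setdb1 knockdown and 16.2 (15.5 to 16.97) with Pparg, though the intervals of the empty expression vector and Pparg do not meet. The empty knockdown vector was lowest at 11.2 FPKM (10.6 to 11.8). Nes rose 2.72-fold with Myod1 (2.57 to 2.87), a log2 ratio of 1.39 that is higher than that of 91.3% of genes, and 4.33-fold when set against the other control. Setdb1 knockdown was at 1.52 times its own control (1.42 to 1.64), yet the controls themselves were further apart than that, at 62.7% (58.3 to 67.4). Against the empty expression vector the knockdown log2 ratio was −0.06 in place of 0.56, so the direction for Nes after knockdown rests on which control is used.

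The bases upstream of Nes are shown because Nes was called with Myod1. The stretch is chr3:87970843-87971077 on the plus strand and carries no E-box, hence no capitals.
Nes: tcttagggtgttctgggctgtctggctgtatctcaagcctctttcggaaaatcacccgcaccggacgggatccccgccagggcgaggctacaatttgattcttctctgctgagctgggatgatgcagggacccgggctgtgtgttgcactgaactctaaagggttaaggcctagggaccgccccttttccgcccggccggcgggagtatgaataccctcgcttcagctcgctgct
The Vim window, which begins inside an annotated exon, also held no E-box, whereas 72.3% of all windows did. Sequences outside these windows were not searched.

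Vim codes for vimentin, the intermediate filament protein of mesenchymal and neural crest-derived cells (chr2:13573927-13582826, plus strand), and was the most abundant member in every library. It was at 548 FPKM (543 to 553) with the empty expression vector, 529 (524 to 535) with the empty knockdown vector and 517 (513 to 522) with Pparg. It was at 327 FPKM (323 to 331) with Myod1 and 239 (236 to 242) after Setdb1 knockdown. With 20994 to 47018 reads a library the intervals are narrow and no neighbours overlap, though a gap as small as that between the controls has no replicate behind it. Vim fell to 45.2% of its control after Setdb1 knockdown (44.4 to 45.9), a log2 ratio of −1.14, and to 43.7% of the other control. With trends of GC content and gene length removed, a setting added after the data were seen, that log2 ratio was −0.96 and under the limit. With Myod1 it stood at 59.7% (58.8 to 60.7), a log2 ratio of −0.74 that passed the limit at −1.13 with each library divided by its FPKM sum, and with Pparg at 94.4% (93.2 to 95.6). Nes was at 3.25% of the Vim level with the empty expression vector, 3.14% with Pparg, 2.11% with the empty knockdown vector, 7.10% after Setdb1 knockdown and 14.8% with Myod1.

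**Figure D4:**
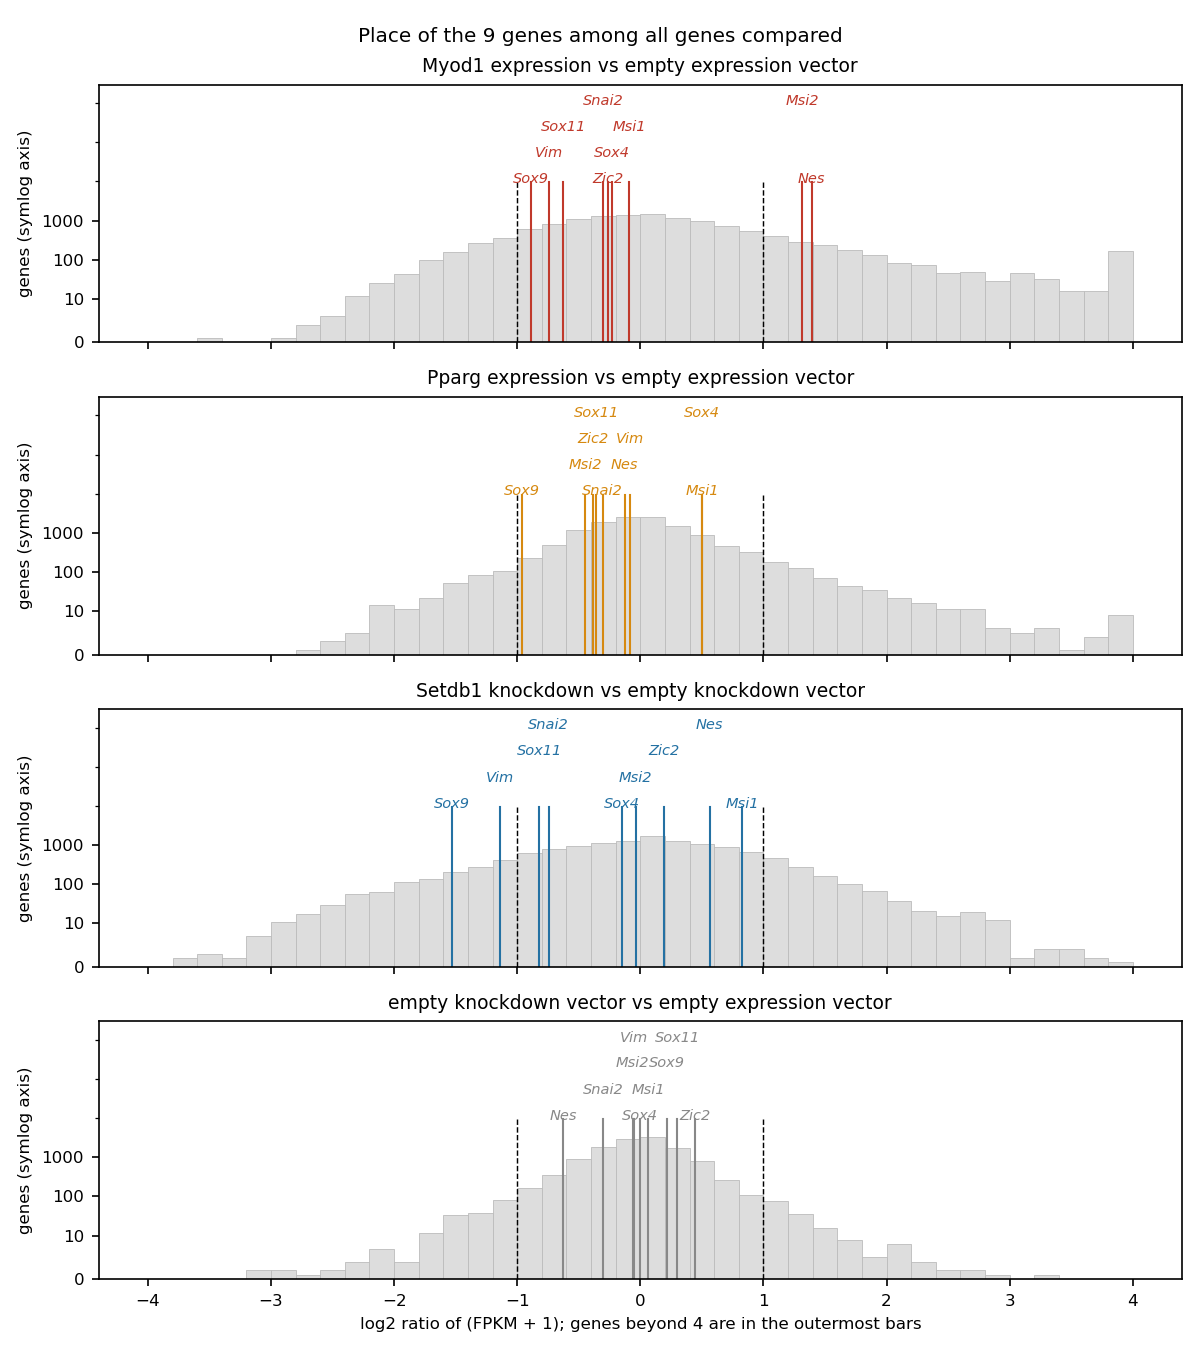
Number of genes (grey bars, a log axis that is linear near 0) by log2 ratio of (FPKM + 1) for the 12842 genes compared, 1 panel a comparison, with a vertical line for each of the 9 genes and dashed lines at the 2-fold limits. Nes and Msi2 lie on the right with Myod1, above 91.3% and 90.5% of genes, and Sox9 lies on the left with Pparg and after Setdb1 knockdown, with 2.47% and 3.89% of genes lower.

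Other genes of the same pathways were followed as 6 lists, of which only the genes that reached 1 FPKM in a library were compared. Sox8, Snai1, Snai3, Fgfr1, Dll1 and Sync reached 1 FPKM only with Myod1. They were compared because they are high there, so their calls as higher with Myod1 were all but set by that filter. Counts in these lists stand beside the shares over all genes, 14% higher and 7.55% lower with Myod1 (9.63% and 14.8% with each library divided by its FPKM sum), 4.22% and 2.3% with Pparg, and 9.34% and 10.3% after Setdb1 knockdown. Of 27 neural crest genes 13 were compared. With Myod1, 3 of them rose (Id2, Erbb3 and Sox8) and 3 fell (Ets1, Pax3 and Tfap2a), with a list median log2 ratio of −0.44. With Pparg, Erbb3 fell and none rose, at a median of −0.45. After Setdb1 knockdown Rhob and Erbb3 rose and Ets1 and Myc fell, at a median of −0.40, and between the controls Id2 was higher, at a median of −0.16. Against the other control 4 of these calls ended: Id2 with Myod1 (0.63), Erbb3 with Pparg (−0.89), and Erbb3 (0.73) and Myc (−0.59) after Setdb1 knockdown. Calls were also gained against it, as for Myc with Myod1 (−1.29 in place of −0.65). Erbb3, a neuregulin receptor of crest cells and Schwann cells, was at 36.6 FPKM with Myod1, 3.27 with Pparg and 11.1 in their control, and at 19.2 against 6.90 after Setdb1 knockdown. Ets1, a transcription factor of migrating cranial crest, was at 18.6 FPKM with Myod1 against 77.0, and at 27.4 against 68.8 after Setdb1 knockdown. Pax3 and Tfap2a, transcription factors that act in the early crest and in melanoblasts, stood at 10.11 against 32.7 and at 7.82 against 18.95 FPKM with Myod1. Rhob, a small GTPase of crest cells leaving the neural tube, was at 203 FPKM after Setdb1 knockdown against 47.7.

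Of 10 genes of epithelial to mesenchymal transition, a program that Snai2 takes part in, made up of other transcription factors, cadherins and Fn1, 5 were compared. With Myod1 Snai1 and Snai3 rose while Fn1 and Zeb2 fell, at a median of −0.91. Snai1 and Snai3 passed the filter only through the Myod1 library. Fn1 was also called lower between the controls themselves (8.20 against 18.43 FPKM), and against the other control its log2 ratio with Myod1 was −0.55 and not called. The paralogs of Snai2 had no read in the control. Snai1 stood at 2.79 FPKM (71 reads), at least 24.6-fold higher than the 3 reads taken as the limit, and Snai3 at 4.96 FPKM (127 reads), at least 44.0-fold higher. In the same library Snai2 stood at 1.04 FPKM, so it was the lowest of the 3 Snail genes there and the highest of them in the control. Zeb2 fell both with Myod1 (1.56 against 4.56 FPKM) and after Setdb1 knockdown (1.12 against 4.83 FPKM), where it was the 1 gene of the list called, at a median of −0.51. With Pparg none of the 5 was called, at a median of −0.13.

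Of 29 neural progenitor genes 14 were compared, with 3 higher (Fgfr1, Dll1 and Hes1) and 2 lower (Ezh2 and Hmga2) with Myod1, at a median of −0.17. Fgfr1, a fibroblast growth factor receptor, was at 6.99 FPKM against 0.0620 (1085 against 10 reads, 113-fold, 61.1 to 236). The Notch ligand Dll1 was at 2.58 FPKM against 0.0435 (171 against 3 reads, a ratio of 59.2 with an interval of 19.9 to 290). Hes1, a Notch target, rose with Myod1 (3.62 against 0.902 FPKM) and after Setdb1 knockdown (4.01 against 1.03), and with each library divided by the sum of its FPKM its log2 ratio with Myod1 was just under the limit, as was that of Sox8. After knockdown Hes1 was the 1 gene higher, and Gli3, Ezh2 and Kdm1a fell, at a median of −0.63. Gli3, a transcription factor of hedgehog signalling, was at 0.755 against 5.43 FPKM there. Ezh2, the histone methyltransferase of the Polycomb complex, was at 5.88 FPKM with Myod1 against 17.9 and at 6.004 after Setdb1 knockdown against 20.14. With Pparg none of the 14 was called, at a median of −0.02. The proliferation marker Mki67, chosen after its values were seen, stood at 33.5, 2.21 and 11.9 FPKM with the empty expression vector, Myod1 and Pparg, and at 12.6 and 0.897 FPKM with the empty knockdown vector and Setdb1 knockdown. Its part in the values of the members was not tested.

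Of 20 Sox family genes, the 4 members included, 8 were compared, and 10 had no read in any library. With Myod1 Sox8 was called higher, from 1 read to 61 reads (0.0196 to 1.24 FPKM, a ratio of 63.4 with an interval of 11.0 to 2544). Sox9 was the 1 called after Setdb1 knockdown, and none was called with Pparg. The medians of the 8 were −0.41 with Myod1, −0.32 with Pparg and −0.38 after Setdb1 knockdown.

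Of 18 intermediate filament and filament-linked genes 10 were compared, and these included Nes and Vim. With Myod1 Des, Sync, Plec, Nes and Lmnb2 rose and Lmnb1 fell, at a median of 0.91, against 14% of all genes higher, 7.55% lower and a median of 0.02. The call of Lmnb2 (1.10) ended at 0.71 with each library divided by its FPKM sum and at 0.91 when scaled to the 75th percentile. Des, the desmin of muscle cells and a partner of nestin and vimentin in filaments, was at 101.8 FPKM against 6.20, 16.4-fold (14.8 to 18.3). Sync, syncoilin, a filament protein that binds desmin, was at 9.51 FPKM against 0.299, and Plec, the cross-linker plectin, at 57.2 against 16.8. After Setdb1 knockdown Des rose as well (13.6 against 4.75 FPKM) while Vim and Lmnb1 fell, at a median of 0.35. Lmnb1, lamin B1 of the nuclear lamina, was at 7.84 FPKM against 45.6 there and at 19.7 against 46.7 with Myod1. With Pparg none of the 10 was called, at a median of 0.00. Des was just short of the limit there, at 12.9 against 6.20 FPKM, and passed it against the other control (4.75 FPKM).

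Of 11 genes known as targets of the members, 6 were compared. Cdkn1a, the cell cycle inhibitor p21 whose mRNA Musashi proteins bind, rose with Myod1 (425 against 119 FPKM) and after Setdb1 knockdown (262 against 119.5). Tubb3, a neuronal tubulin activated by Sox4 and Sox11, fell with Pparg (82.8 against 201.5 FPKM) and after Setdb1 knockdown (36.1 against 119.5), and stood at 135.6 FPKM with Myod1. Against the other control Tubb3 was at −0.52 with Pparg, which ends that call, and its log2 ratio with Myod1 turned from −0.57 to 0.18. Tubb3 made up nearly all of the summed level of 12 neuron markers, which was 202, 137 and 83.6 FPKM with the empty expression vector, Myod1 and Pparg, and 120.0 and 36.5 with the empty knockdown vector and Setdb1 knockdown. Stmn1, stathmin, which destabilises microtubules, fell after the knockdown as well (25.4 against 68.95 FPKM). The list medians were −0.10 with Myod1, 0.08 with Pparg and −0.08 after Setdb1 knockdown.

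**Figure D5:**
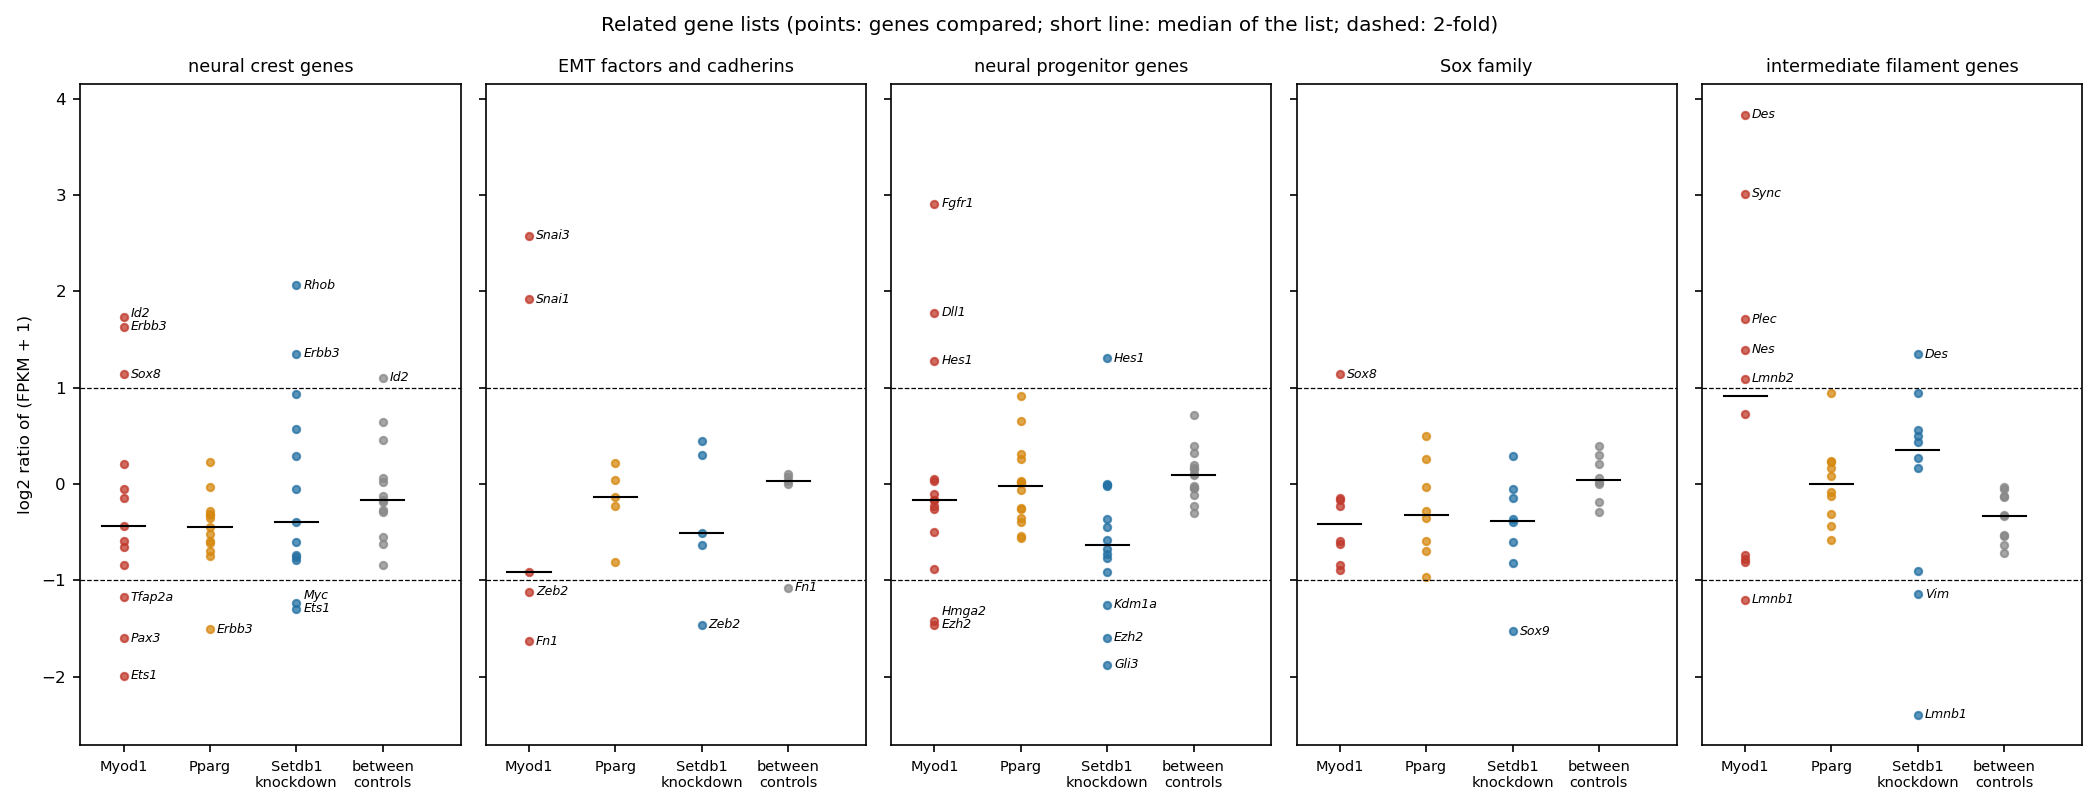
Log2 ratio of (FPKM + 1) of the genes compared in 5 of the 6 lists (points), by comparison, with the list median as a short line, dashed lines at 2-fold, and names for the genes called. In the intermediate filament list with Myod1 5 of 10 points lie above the upper line and 1 below the lower, with a median of 0.91.

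Likeness of pattern was measured over the 5 libraries as the Euclidean distance between profiles of log2(FPKM + 1), each centred on its mean, among 8519 genes with at least 5 FPKM in a library. For Sox11 the nearest were H2afy (0.0334), Gspt1 (0.0821) and Ttc9c (0.0870), and for Vim they were Rfc2 (0.0864), Bahcc1 (0.123) and Rad9a (0.127). For Sox4 they were Lmtk2 (0.106), Abat (0.116) and Sh3glb2 (0.159). For Zic2 they were Fam160b1 (0.170), Rpf1 (0.178) and Clp1 (0.211). For Msi2 they were Ptpn21 (0.157), Ets2 (0.195) and Sccpdh (0.231), and for Nes 6430548M08Rik (0.196), Kremen1 (0.247) and Myo18a (0.249). Distances grow with the size of a member's own profile, so they are not compared between members. The 5 points of each profile share libraries and controls, and the closest of so many genes over 5 points is a description only. Sox9, Msi1 and Snai2 stayed under 5 FPKM in every library and were not ranked.

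Nes and its neighbour Bcan, 7080 bases away on the opposite strand and named after its values were seen, had different patterns. Bcan, which codes for the matrix proteoglycan brevican of neural tissue, was highest with Pparg at 21.4 FPKM, followed by 5.305 with Myod1, 3.66 with the empty expression vector, 2.47 after Setdb1 knockdown and 2.09 with the empty knockdown vector. Nes was highest with Myod1.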

How the data were processed

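RNA sequencing values came from 5 B16F10 libraries, 1 per group. Per the submitters' processing notes, CASAVA, HISAT2, featureCounts 1.5.0-p3 and build GRCm38 were used, without stated roles or strand and multi-mapping settings. The authors deposited FPKM values and gene lengths (in bases, an other kind of value) for 54699 genes. In each library 100% of FPKM values times gene length were whole multiples of 1 read within 0.01 reads, which gave back reads per gene. The divisor equalled median-of-ratios size factors over 14534 genes, so the deposited FPKM were already scaled between libraries.

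Genes with at least 1 FPKM in 1 library (12842) were compared by log2((FPKM + 1)/(FPKM + 1)), called at 2-fold. Wilson intervals on a library's reads and exact conditional intervals on folds (both 95%) and a limit of 3 reads at 0 cover counting error only. Without replicates no count model or test was run.

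The members and lists were chosen with earlier results of these data known. Named genes are the members, the targeted genes, up to 5 genes per list and comparison called against both controls, and the 3 genes of nearest profile per member reaching 5 FPKM; every called gene of the 6 lists is also listed by name. Outside this rule, Sox10, Numb, Zic5, Bcan, Mki67, Sox12 and Sox13 were named after their values were seen, as were the overlapping genes Sox2ot and Gm26735. Promoter windows are from RefSeq (GRCm38.p6), exon overlaps from GENCODE M21.

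Alternatives were a pseudocount of 0.1, a 4-fold limit, no filter, a filter on mean FPKM (1 or more), the column sum, the 75th percentile, the other control and both controls. Chosen after seeing the data were removal of GC and length trends and no pseudocount. Python 3.11.15, numpy 2.4.6, pandas 2.3.3, scipy 1.17.1 and matplotlib 3.10.9 were used.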

Additional observations from a re-analysis of the deposited data

How the results depend on the processing

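The number of the 9 genes called changed with some settings. With Myod1 the 2 genes became 0 at a 4-fold limit (4.35% of all genes higher and 0.382% lower). They became 3 with a pseudocount of 0.1, without a pseudocount, with the other control or at the 75th percentile, each time through Sox9 (lower), where 13.2%, 13.8%, 7.51% and 10.4% of all genes were lower. With the column sum they were Nes (higher, 1.01), Vim and Sox9 (lower, −1.13 for Sox9), Msi2 being at 0.95, with 9.63% of all genes higher and 14.8% lower. That scaling moved the median of all genes from 0.02 to −0.26 with Myod1. With Pparg the 0 genes became 1 (Sox9, lower) with a pseudocount of 0.1, without a pseudocount and with the other control, where 4.66%, 4.05% and 2.41% of all genes were lower. After Setdb1 knockdown the 2 genes became 4 with a pseudocount of 0.1 and without one (Msi1 higher, Vim, Sox9 and Snai2 lower), where 15% and 14.5% of all genes were higher and 16.3% and 16.9% lower. They became 0 at a 4-fold limit (0.919% higher and 1.495% lower), and 1 (Sox9) once trends with GC content and length were removed, Vim being at −0.96 and 8.74% of all genes lower. With the other control they were 3, Snai2 being at −1.05 and 11.0% of all genes lower.

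The sign of Nes (0.50) with Pparg and of Snai2 (0.00) with Myod1 changed with the other control, that of Nes (−0.06) after knockdown too, and that of Msi2 (0.48) and Zic2 (−0.29) after knockdown on removing the GC and length trends. With Pparg that of Vim (0.02) changed with the column sum. None of these was called. Across genes the rank correlation of the log2 ratio with GC content was 0.39 after Setdb1 knockdown, 0.22 with Myod1, 0.19 with Pparg and −0.27 between the controls. The cause of these differences was not tested. No paired analysis was possible because each group has 1 library. Snai2, with 8 to 50 reads, is limited by depth.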
